A study of Mus musculus with 10 samples.

Results

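Tnfrsf12a, the receptor for the cytokine TWEAK, is described here together with 4 other TNF receptor superfamily genes of the mouse heart: Tnfrsf1a and Tnfrsf1b, which encode the receptors for TNF, Ltbr, the lymphotoxin beta receptor, and Tnfrsf21, also called death receptor 6. The 5 genes were selected by their symbols in the array annotation and, in part, on their measured signals across the groups, out of 12394 genes that had a probe set with 1 symbol. They are read by 8 probe sets, groups of short array oligonucleotides that match 1 transcript region, all of which passed the filter on low signals. Because the signals themselves helped to choose these genes, their differences with training and with genotype are given as a description with their standard error (SE) and no test. Sex was not named in the choice, so differences by sex were tested. The choice did read the signals of each mouse, so these tests are not independent of it.

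The study asked how endurance training changes gene expression in the right ventricle of mice that lack 1 of 2 functional copies of plakoglobin, a desmosomal protein encoded by Jup. Right ventricular RNA of 10 mice of strain 129SV was hybridised to 10 Affymetrix arrays, 1 per mouse. The trained plakoglobin (+/-) group (n = 4) and the trained wt group (n = 4) each held 2 females and 2 males of 6 months. They swam in water of 35 °C 6 times a week, with sessions lengthened from 5 to 90 minutes. The untrained plakoglobin (+/-) group (n = 1) and the untrained wt group (n = 1) were females of 10 months without swimming. Training and age therefore cannot be told apart, and no untrained male was measured. The labels give no further allele name and no tissue restriction of the genotype.

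TNF superfamily receptors are membrane proteins that are switched on by trimeric ligands and pass the signal to adaptor proteins. Tnfrsf1a and Tnfrsf21 carry an intracellular death domain, whereas Tnfrsf12a, Tnfrsf1b and Ltbr recruit TRAF adaptors directly, and most of these routes end in activation of the transcription factor NF-kB. In the heart, TNF is known for depressing contraction through Tnfrsf1a, and Tnfrsf12a, first found as a gene induced by fibroblast growth factor, is known to be present at low levels in resting tissue and to be induced by injury and growth stimuli.

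The promoters of Tnfrsf12a and Tnfrsf1a are shown because the results turn on these genes: Tnfrsf12a varied most between the mice among the 5 genes, and Tnfrsf1a was among the most even. Each window runs from 250 bases before to 50 bases after the gene start in RefSeq (build GRCm38.p6) and is written on the gene's strand, 5′ to 3′. Capitals mark the GC box GGGCGG or its reverse complement. Tnfrsf12a lies on the minus strand at chr17:23677400-23677699 and Tnfrsf1a on the plus strand at chr6:125349473-125349772.
Tnfrsf12a promoter: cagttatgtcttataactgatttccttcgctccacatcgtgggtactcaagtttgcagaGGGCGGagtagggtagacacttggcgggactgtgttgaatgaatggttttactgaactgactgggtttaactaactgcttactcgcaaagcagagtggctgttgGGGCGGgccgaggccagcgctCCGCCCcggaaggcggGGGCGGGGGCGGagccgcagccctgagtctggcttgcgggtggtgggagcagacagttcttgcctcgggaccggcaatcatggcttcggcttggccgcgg
Tnfrsf1a promoter: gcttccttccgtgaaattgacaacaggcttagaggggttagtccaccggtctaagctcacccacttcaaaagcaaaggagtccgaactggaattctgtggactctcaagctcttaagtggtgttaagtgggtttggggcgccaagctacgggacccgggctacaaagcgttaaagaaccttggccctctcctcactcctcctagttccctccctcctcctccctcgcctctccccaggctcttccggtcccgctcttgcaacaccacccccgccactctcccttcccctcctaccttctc
The Tnfrsf12a window held 5 GC boxes and the Tnfrsf1a window 0. Those of Tnfrsf1b and Ltbr held 2 each and that of Tnfrsf21 held 1. Over both strands, 35.7% of 32851 mouse promoter windows of the same length held at least 1. No window of the 5 genes held the letters TATAAA (13.6% of all windows), the AP-1 site TGANTCA (7.8%) or the NF-kappaB consensus (8.5%). The E-box CACGTG, held by 7.2% of all windows, was found once each in Ltbr and Tnfrsf21. These are matches of letters within the window. In the RefSeq annotation Ltbr and Tnfrsf1a lie on either side of Scnn1a on chromosome 6, and Tnfrsf12a overlaps Hcfc1r1 on chromosome 17.

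The values are linear signals from the MAS5 software, and differences are given on the log2 scale. Every array had the same trimmed mean of 2501.3 to 2501.6, so the arrays share 1 scale. The GAPDH control ratio (3′ over 5′ signal), which can increase when RNA is degraded, was 17.8 for replicate 2 and 2.50 for replicate 1 of the trained wt group, and 2.98 for replicate 1 of the trained plakoglobin (+/-) group. It was 0.849 to 1.02 on the other 7 arrays. The actin control ratio was 1.29 on the first of these arrays, 3.05 on the second and 2.65 on the third, against 0.932 to 1.24 on the other 7, so for trained wt replicate 2 only the GAPDH ratio stood far apart. The female transcript Xist read 10040 to 17590 in trained females and 1158 to 1700 in trained males, which fits the sex labels. Jup averaged 2526 ± 680.1 in trained plakoglobin (+/-) mice and 3613 ± 653.9 in trained wt mice (SD, n = 4 each). That difference of -0.53 on the log2 scale (SE 0.24) did not pass the adjusted threshold (limma, adjusted p = 1). The untrained pair ran against its labels, with 3156.9 in the mouse labelled untrained plakoglobin (+/-) and 2386.8 in the mouse labelled untrained wt. The 7 cardiomyocyte markers summed to between 1279084 and 1834672 per mouse, while the 4 atrial markers summed to between 2360 and 4497, and no marker of either list averaged at or below the floor for weak signals, the 10th percentile of all values.

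Tnfrsf12a was lower in all 8 trained mice than in both untrained mice, and among the trained mice it was lower in all 4 females than in all 4 males. Probe set 1418571_at had signals of 2610.3, 2704.8, 529.6 and 1561.7 in trained plakoglobin (+/-) replicates 1 to 4 and of 3197.4, 85.0, 2760.3 and 429.6 in trained wt replicates 1 to 4, against 5242.2 in the untrained plakoglobin (+/-) mouse and 6396.8 in the untrained wt mouse. The 4 lowest values are those of the 4 trained females, and the lowest, in trained wt replicate 2, lies below the floor. Probe set 1418572_x_at had 3461.4, 2782.3, 878.1 and 1848.7 in trained plakoglobin (+/-) replicates 1 to 4 and 3361.9, 179.0, 3283.4 and 1201.1 in trained wt replicates 1 to 4, against 4371.5 in the untrained plakoglobin (+/-) mouse and 3954.0 in the untrained wt mouse. The order of the mouse classes was the same in both probe sets: untrained females highest, then trained males, then trained females, with no overlap between classes.

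The fitted difference of trained minus untrained mice, with terms for genotype and sex, was -3.72 on the log2 scale (SE 0.70, 10 mice) for 1418571_at, which is 13.2-fold lower in trained mice, and -2.44 (SE 0.66) for 1418572_x_at, which is 5.41-fold lower. In size these differences were above those of 99.96% and 99.67% of the 13576 probe sets tested. Signals across these groups helped to choose the gene, so these ranks are a description and no support for a difference. Both untrained mice were female, so with a sex term the differences and ranks rest on the females. Trained females averaged 651.5 ± 636.0 (SD, n = 4) on 1418571_at, against 5242.2 and 6396.8 in the untrained females. Trained males read 2610 to 3197 on that probe set, closer to the untrained females than the trained females were. Without the sex term the differences were -2.38 (SE 1.07) for 1418571_at and -1.40 (SE 0.89) for 1418572_x_at. Signals of trained and untrained mice did not overlap for 2 of the 8 receptor probe sets, the 2 of Tnfrsf12a, where 9.24% of all probe sets tested had none. Over all probe sets 0.626% passed the threshold of an adjusted p of 0.05 for this contrast (limma, Benjamini-Hochberg). Trained and untrained females alone gave no overlap for the same 2 receptor probe sets, against 20.8% of all probe sets, a share that 4 against 2 mice make large.

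**Figure D1:**
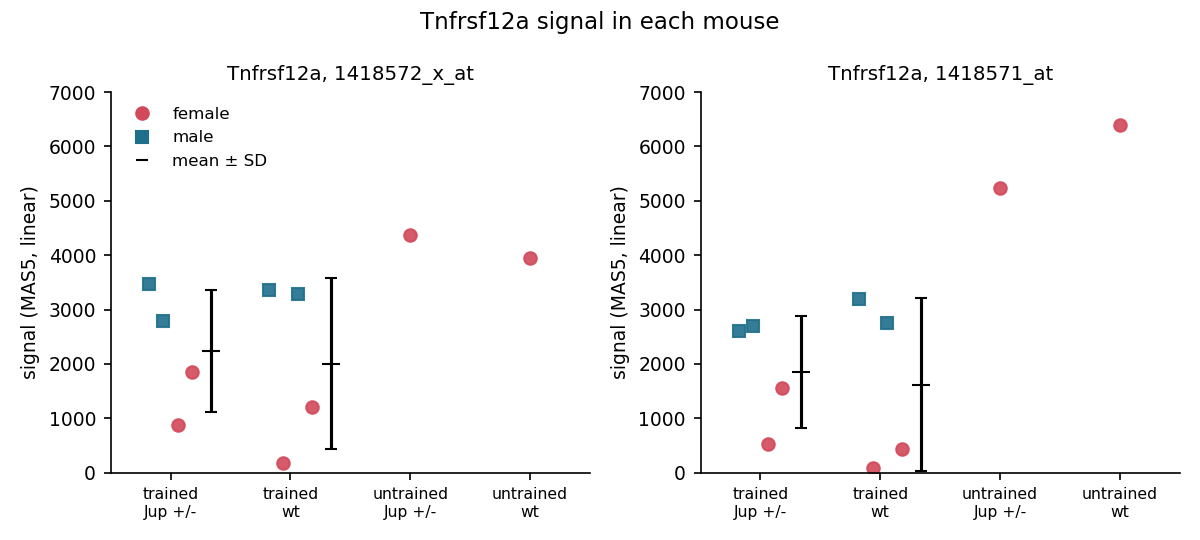
Signal (linear MAS5 units, vertical axis) of the Tnfrsf12a probe sets 1418572_x_at and 1418571_at in each mouse, by group along the horizontal axis, with circles for females and squares for males; black bars are the mean ± SD of the 4 mice of a trained group. Both untrained females lie above every trained mouse, and the 4 trained females lie below the 4 trained males.

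Trained wt replicate 2, the array of the highest GAPDH ratio, holds the lowest Tnfrsf12a signal on both probe sets. Without the 3 arrays of a ratio above 2, the trained minus untrained difference was -3.09 (SE 0.44) on 1418571_at and -1.74 (SE 0.31) on 1418572_x_at. In wt mice alone, where each genotype has 1 untrained mouse, it was -4.92 (SE 0.82) and -3.09 (SE 1.0), and in plakoglobin (+/-) mice alone -2.53 (SE 0.65) and -1.78 (SE 0.52). The genotype by training term, from a fit of all 10 mice with 1 shared sex term, was 1.26 (SE 1.31) and 0.54 (SE 1.27), smaller than its own error. Values by genotype rest on the labels of the untrained mice, whose Jup signals ran against them. Hcfc1r1, which overlaps Tnfrsf12a in the annotation, had trained minus untrained differences of 0.09 (SE 0.32) and 0.35 (SE 0.18) on its 2 probe sets, without the lower signals of Tnfrsf12a.

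The summed leukocyte markers were likewise lowest in trained females. The 12 leukocyte markers on the array summed to 28934 to 35280 in trained females and 42502 to 55597 in trained males, against 47675 to 50160 in untrained mice, and none averaged at or below the floor. Of 9 tested, 8 had a lower fitted value in trained mice (median -0.65, all genes 0.00) and 0 passed the threshold (limma, 5 at an unadjusted p under 0.05). With the sex term these values rest on the females, and the sums of the trained males spanned those of the untrained mice. Over the array 0.626% of 13576 probe sets passed and 1178 had an unadjusted p under 0.05 (limma). Fibroblast markers summed to 81114 to 104229 in trained females and 95154 to 121045 in trained males, against 109811 to 116576 in untrained mice. Gene by gene they were mixed by sex: of 7 tested, 4 were lower and 3 higher in trained females (median -0.05, all genes -0.03). The 3 erythroid markers on the array also had their lowest median sum in trained females, with wide overlap, and only 1 was tested. They summed to 585.0 to 5114.6 in trained females, 2307.7 to 8150.5 in trained males and 3411.5 to 3863.5 in untrained mice. The endothelial, smooth muscle and cardiomyocyte lists did not have their lowest median sum in trained females. Endothelial markers summed to 30062 to 33413 in trained females, 28594 to 35790 in trained males and 29982 to 33872 in untrained mice. Smooth muscle and pericyte markers summed to 54334 to 96796, 65264 to 98261 and 76484.5 to 77417 in the same classes. Cardiomyocyte markers summed to 1374911 to 1678120 in trained females and 1279084 to 1492593 in trained males, against 1605330.5 to 1834672 in untrained mice. The part of any of these cell types in the Tnfrsf12a signals was not tested. In whole ventricle, fewer cells of a type and less RNA per cell cannot be told apart.

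By sex, over the 8 trained mice with a term for genotype, Tnfrsf12a was lower in females on both probe sets, but not past the threshold. Probe set 1418571_at averaged 651.5 ± 636.0 in trained females and 2818 ± 260.3 in trained males (SD, n = 4 each), a difference of -2.68 (SE 0.59; limma, adjusted p = 0.36). Probe set 1418572_x_at averaged 1027 ± 694.4 in trained females and 3222 ± 302.2 in trained males (SD, n = 4 each), a difference of -2.06 (SE 0.57; limma, adjusted p = 0.50). The unadjusted p values of limma were 0.0012 and 0.0048. The males were close to each other and the females spread over a wide range, from 85.0 to 1562 on 1418571_at. Without the 3 arrays of a high GAPDH ratio the differences were -2.05 (SE 0.49) and -1.27 (SE 0.34).

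Tnfrsf1a, the main receptor for soluble TNF, showed a smaller difference of the same kind. Its probe set 1417291_at read 6529.3, 7734.3, 4878.0 and 5438.7 in trained plakoglobin (+/-) replicates 1 to 4 and 7810.9, 4801.1, 6070.2 and 4019.0 in trained wt replicates 1 to 4, against 5327.2 in the untrained plakoglobin (+/-) mouse and 5283.1 in the untrained wt mouse. All 4 trained males lay above all 4 trained females, and both untrained females lay within the range of the trained females. Trained females averaged 4784 ± 583.9 and trained males 7036 ± 871.3 (SD, n = 4 each), a difference of -0.56 (SE 0.17; limma, adjusted p = 0.51, against an unadjusted 0.0097). The trained minus untrained difference was -0.16 (SE 0.20) with the sex term and 0.12 (SE 0.26) without it, so it had no settled direction.

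Over all 8 receptor probe sets, 0 passed the threshold by sex (limma, 3 had an unadjusted p under 0.05, namely both of Tnfrsf12a and that of Tnfrsf1a). Over the array 0.0516% of 13576 probe sets passed by sex and 1198 had an unadjusted p under 0.05 (limma). The same 3 receptor probe sets were the ones without overlap between trained females and trained males, against 5.89% of all probe sets. The 7 probe sets that did pass by sex over the whole array were Xist, higher in females, and the immediate early genes Fos, Egr1, Nr4a1, Dusp1, Zfp36 and Ier2, which are switched on within minutes of a stimulus and were all lower in females. Fos read 145.0 to 665.6 in trained females and 8641 to 53320 in trained males, with 157.5 to 555.1 in untrained females. Tnfrsf12a was highest in the untrained females and intermediate in the trained males. These classes of mice differ in sex, training and age together. Leukocyte markers had the same direction by sex, with 9 of 9 tested lower in trained females (median -0.35, all genes -0.03) and 0 past the threshold (limma, 3 at an unadjusted p under 0.05). The part of either in the receptor signals was not tested.

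**Figure D2:**
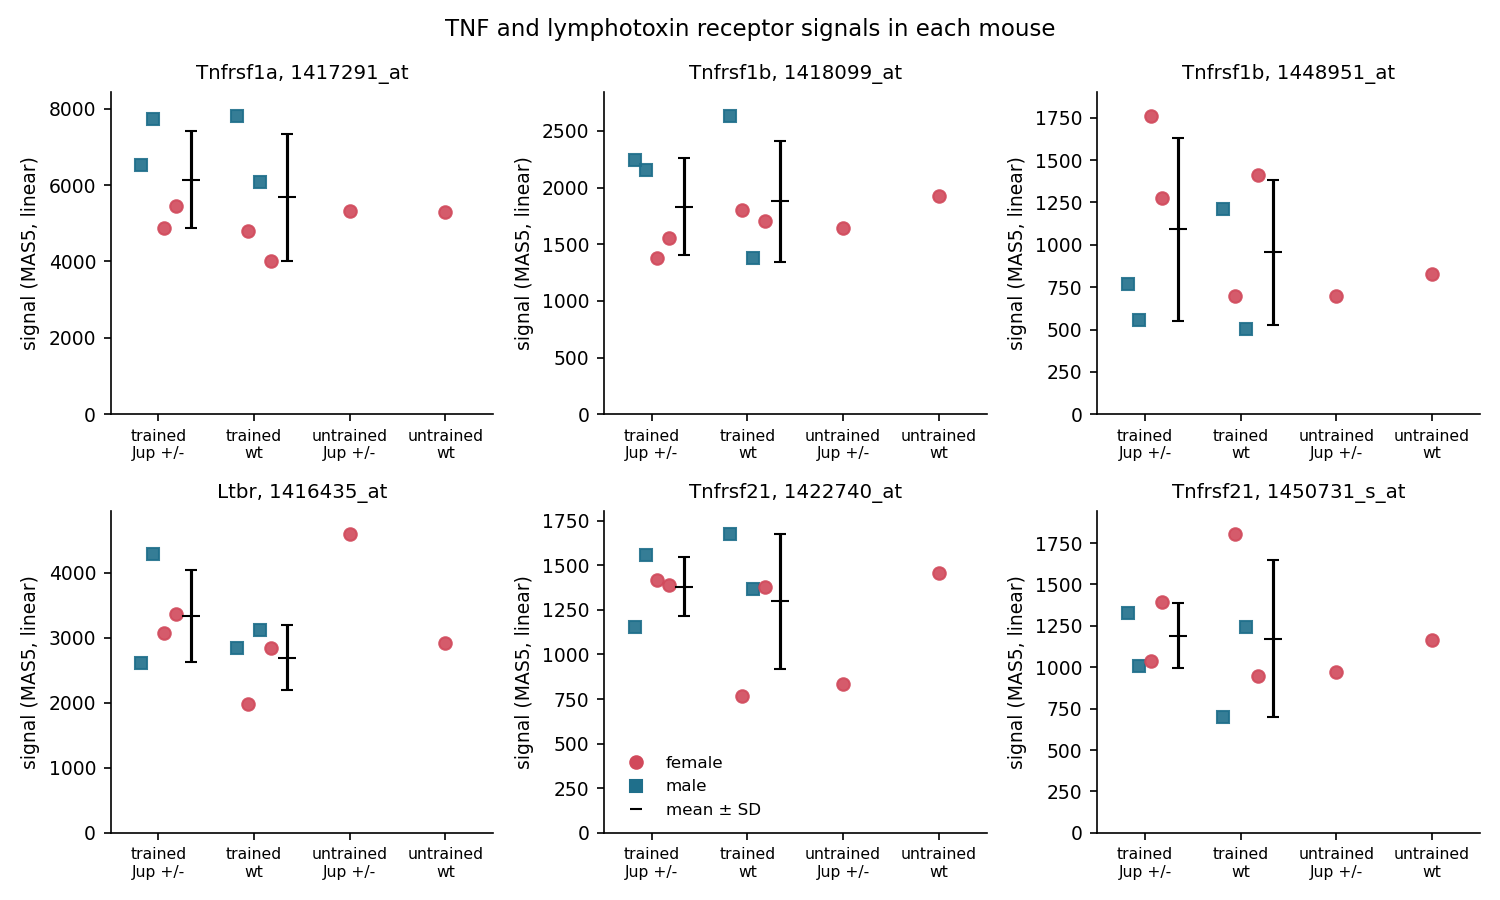
Signal (linear MAS5 units, vertical axis) of the Tnfrsf1a, Tnfrsf1b, Ltbr and Tnfrsf21 probe sets in each mouse, by group along the horizontal axis, with circles for females and squares for males; black bars are the mean ± SD of the 4 mice of a trained group. Only in the Tnfrsf1a panel do the trained females and trained males of both groups separate, and no panel separates the trained from the untrained mice.

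Tnfrsf1b, the TNF receptor found mainly on leukocytes and endothelium, gave a different picture on each of its probe sets. Probe set 1418099_at read 2242.8, 2151.2, 1382.2 and 1550.7 in trained plakoglobin (+/-) replicates 1 to 4 and 2632.3, 1804.7, 1379.7 and 1702.2 in trained wt replicates 1 to 4, against 1643.2 in the untrained plakoglobin (+/-) mouse and 1923.2 in the untrained wt mouse. Both untrained values lay inside the trained range, and the fitted trained minus untrained difference was -0.15 (SE 0.29) with the sex term and 0.03 without it. Probe set 1448951_at read 768.6, 556.1, 1760.7 and 1276.2 in trained plakoglobin (+/-) replicates 1 to 4 and 1213.1, 697.1, 502.1 and 1413.7 in trained wt replicates 1 to 4, against 695.1 in the untrained plakoglobin (+/-) mouse and 830.6 in the untrained wt mouse. Its trained minus untrained difference was 0.68 (SE 0.48) with the sex term and 0.30 without it. By sex, the female minus male difference was -0.35 (SE 0.25; limma, adjusted p = 0.69) on the first probe set and 0.77 (SE 0.41; limma, adjusted p = 0.60) on the second, opposite in sign and neither past the threshold. Without the 3 arrays of a high GAPDH ratio they were -0.19 and 1.46 (SE 0.40), again not past the threshold (limma, adjusted p = 0.89 and 0.34). Over all alternatives the adjusted p of the second ranged from 0.34 to 0.96.

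Ltbr, which drives the alternative NF-kB route, overlapped between all classes of mice. Its probe set 1416435_at read 2611.3, 4279.9, 3068.8 and 3359.9 in trained plakoglobin (+/-) replicates 1 to 4 and 2839.8, 1978.2, 3119.9 and 2840.8 in trained wt replicates 1 to 4, against 4588.6 in the untrained plakoglobin (+/-) mouse and 2913.3 in the untrained wt mouse. The highest value was that of the untrained plakoglobin (+/-) mouse and the lowest that of trained wt replicate 2, the array of the highest GAPDH ratio. The trained minus untrained difference was -0.41 (SE 0.26), and the female minus male difference -0.19 (SE 0.22; limma, adjusted p = 0.81).

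Tnfrsf21, a death domain receptor studied mostly in neurons and lymphocytes, had no common pattern over its probe sets. Probe set 1422740_at read 1156.6, 1558.2, 1416.2 and 1389.2 in trained plakoglobin (+/-) replicates 1 to 4 and 1673.2, 769.1, 1368.2 and 1376.7 in trained wt replicates 1 to 4, against 835.6 in the untrained plakoglobin (+/-) mouse and 1457.7 in the untrained wt mouse. Probe set 1450731_s_at read 1324.7, 1007.1, 1035.1 and 1393.7 in trained plakoglobin (+/-) replicates 1 to 4 and 697.1, 1802.7, 1245.1 and 949.1 in trained wt replicates 1 to 4, against 971.1 in the untrained plakoglobin (+/-) mouse and 1162.1 in the untrained wt mouse. In trained wt replicate 2 the first probe set had its lowest value and the second its highest. The trained minus untrained differences were 0.12 (SE 0.36) and 0.24 (SE 0.38). The first turned with the untrained mouse used: it was 0.59 without the untrained wt mouse and -0.35 without the untrained plakoglobin (+/-) mouse. By sex the differences were -0.25 (SE 0.28; limma, adjusted p = 0.81) and 0.27 (SE 0.32; limma, adjusted p = 0.82). Without the 3 arrays of a high GAPDH ratio they were -0.08 and -0.02, so the second turned its direction.

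How far the probe sets of 1 gene moved together was part of how the genes were chosen and is given as a description over the 10 arrays, which share the same RNA and scaling. The Tnfrsf12a pair had a Pearson r of 0.97 and a Spearman rho of 0.90 on log2 signals, and r was 0.96 without the 2 mice farthest from the median. The Tnfrsf1b pair had an r of -0.11 (rho -0.04) and the Tnfrsf21 pair an r of -0.56 (rho -0.50). A reading from 1 probe set of Tnfrsf1b or Tnfrsf21 was therefore not shared by the other. By the array maker's naming, the suffix x in 1418572_x_at marks probes that may also bind other transcripts, and the suffix s in 1450731_s_at marks probes shared by several transcripts.

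**Figure D3:**
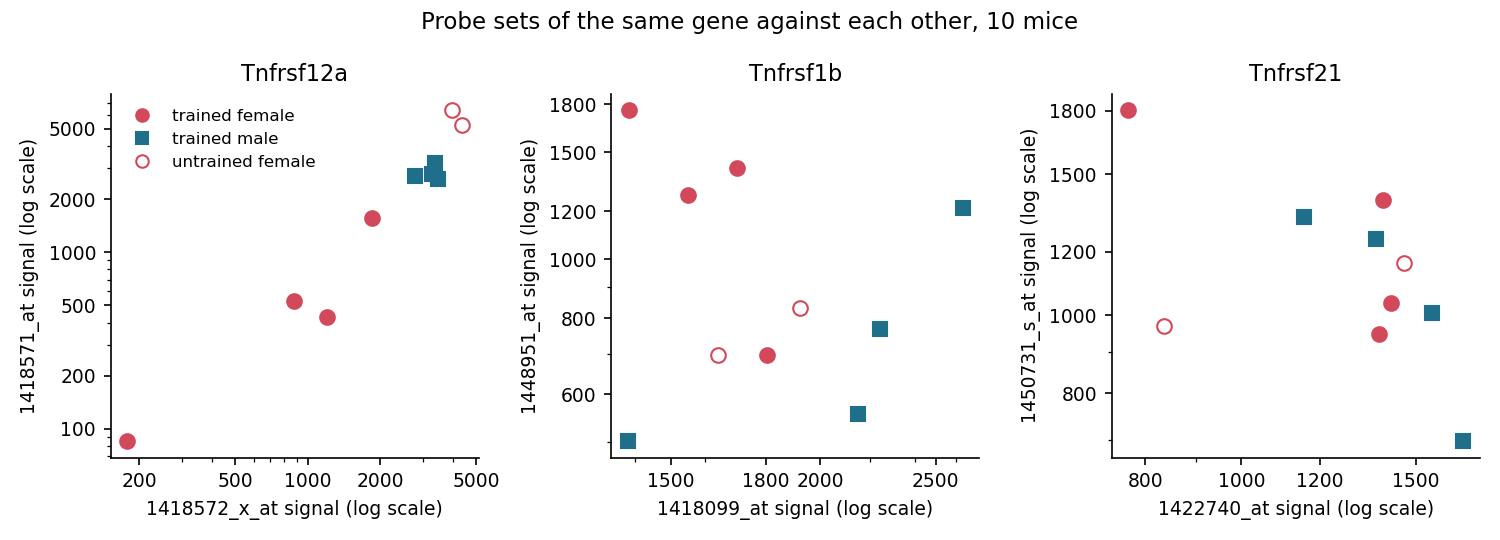
Signals of the 2 probe sets of Tnfrsf12a, Tnfrsf1b and Tnfrsf21 against each other in the 10 mice, both axes on a log scale; filled circles are trained females, squares trained males and open circles untrained females. The Tnfrsf12a points lie along 1 rising line (r 0.97), and those of Tnfrsf1b (r -0.11) and Tnfrsf21 (r -0.56) do not.

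The 5 genes also differed in how widely they varied. The highest signal of the 10 mice was 75.3 times the lowest for Tnfrsf12a 1418571_at and 24.4 times for 1418572_x_at. It was 1.94 times for Tnfrsf1a, 2.32 times for Ltbr, 1.91 and 3.51 times for Tnfrsf1b, and 2.18 and 2.59 times for Tnfrsf21. Over all receptor probe sets and mice, 1 signal lay at or below the floor.

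Between the trained plakoglobin (+/-) and trained wt groups the signals of all 5 genes overlapped. The difference of plakoglobin (+/-) minus wt in the 8 trained mice was 0.97 (SE 0.59) for Tnfrsf12a 1418571_at and 0.68 (SE 0.57) for 1418572_x_at. It was 0.14 (SE 0.17) for Tnfrsf1a, -0.03 (SE 0.25) and 0.17 (SE 0.41) for Tnfrsf1b, 0.30 (SE 0.22) for Ltbr, and 0.14 (SE 0.28) and 0.09 (SE 0.32) for Tnfrsf21. The overlap held for all 8 receptor probe sets, where 1.6% of all probe sets had no overlap. Over the whole array 0% of probe sets passed for genotype (limma; 273 at an unadjusted p under 0.05). The values of all 4 Tnfrsf1b and Tnfrsf21 probe sets changed sign when 1 mouse or another was left out. The Tnfrsf12a values rest on single mice: without trained wt replicate 2 they were 0.34 and -0.02, and without trained plakoglobin (+/-) replicate 4 they were 0.43 and 0.31.

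**Figure D4:**
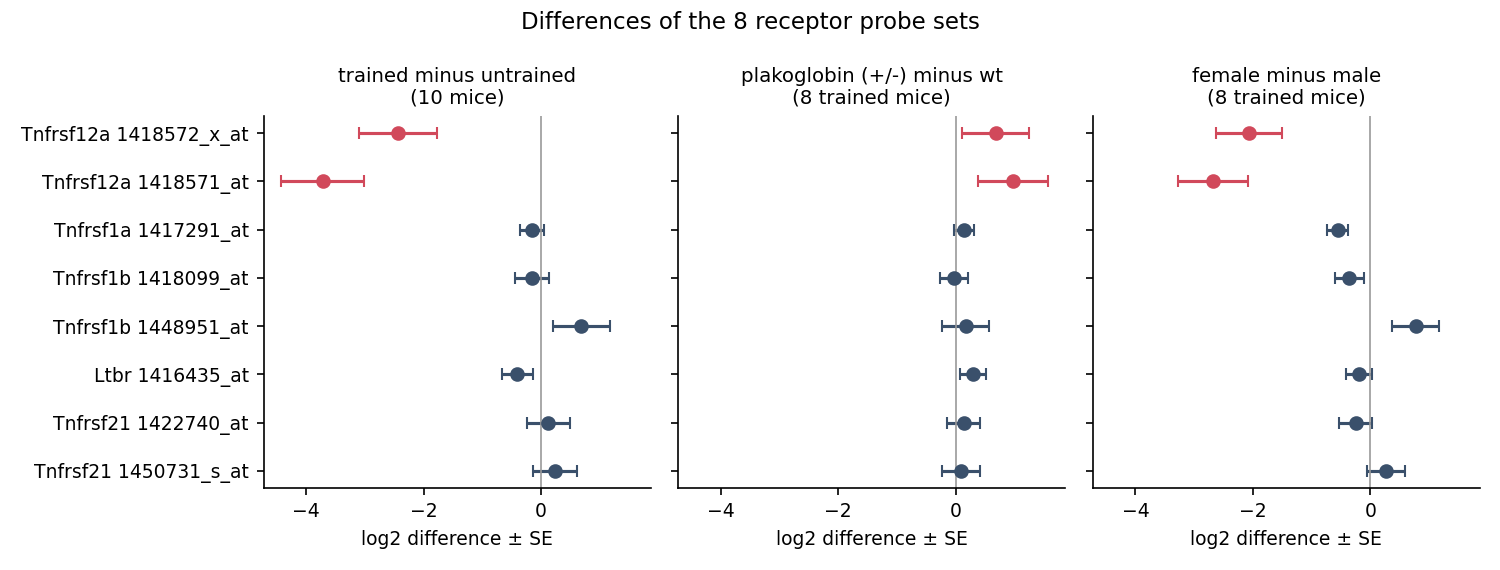
Log2 differences with their SE (horizontal axis) of the 8 receptor probe sets (rows) for trained minus untrained mice, plakoglobin (+/-) minus wt in trained mice and female minus male in trained mice. The Tnfrsf12a probe sets lie farthest left for training (-3.72 and -2.44) and for sex (-2.68 and -2.06), and the other receptors lie between -0.56 and 0.77 in all panels.

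The ligands, the other receptors and the downstream genes were read from 6 lists of 99 genes, of which 85 were on the array with a probe set of 1 symbol and 43 were tested. Tnfsf12, which encodes TWEAK itself, is read only by probe sets with several symbols and has no value here. In trained against untrained mice 0 of the 43 passed in either direction (limma, 4 at an unadjusted p under 0.05). Of the fitted values 24 were above 0 and 19 below, with a median of 0.03, against a median of 0.00 over 8364 genes. Of those genes 0.538% passed, and 1178 of the 13576 probe sets tested had an unadjusted p under 0.05 (limma). By sex 0 of 43 passed (limma, 6 at an unadjusted p under 0.05). Here 16 were above 0 and 27 below, with a median of -0.09, against -0.03 over all genes. Of all genes 0.0837% passed by sex, and 1198 probe sets had an unadjusted p under 0.05 (limma). By genotype 0 of 43 passed (limma, 1 at an unadjusted p under 0.05). Of all genes 0% passed by genotype, and 273 probe sets had an unadjusted p under 0.05 (limma).

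Among the ligands, 4 of 18 genes were tested, and 0 passed. Eda, the ligand of ectodermal development, had 301.5 to 1465 in trained mice, against 349.0 and 675.1 in untrained mice (1.26, SE 0.52; limma, adjusted p = 0.50). With the sex term this value rests on the females: Eda read 897.6 to 1465 in trained females and 301.5 to 1086 in trained males. By sex the difference was 1.23 (SE 0.43; limma, adjusted p = 0.51). The other Eda probe sets did not pass the filter on low signals. Lta, a lymphotoxin, had a trained minus untrained difference of -0.48 (SE 0.78). Among the other receptors 6 of 23 were tested, with 5 fitted values below 0 and a median of -0.36. The death receptor Fas had a difference of -0.94 (SE 0.75) and Tnfrsf4, a costimulatory receptor of T cells, had 0.30 (SE 0.23), neither past the threshold. None of the ligands or other receptors tested reached the size of the Tnfrsf12a difference. Tnfrsf12a was chosen in part on its signals across these groups, and most genes of these lists were not tested.

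Of the adaptor and death signalling genes 14 of 24 were tested, with 10 fitted values above 0 and a median of 0.11. Birc3, a ubiquitin ligase bound to TRAF proteins, had -0.75 (SE 0.37; limma, adjusted p = 0.62), and Rbck1, part of the linear ubiquitin complex, had -0.66 (SE 0.29; limma, adjusted p = 0.55). Of the NF-kB subunits, kinases and inhibitors 6 of 12 were tested, with a median of 0.12. The kinase Ikbkb had 0.39 (SE 0.36) on its brightest probe set, and 0.22 and -0.53 on the other probe sets tested.

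Nfkbia, which encodes the inhibitor that holds NF-kB in the cytoplasm and is itself an NF-kB target, had a trained minus untrained difference of -0.24 (SE 0.24) on its brightest probe set. The further probe sets had 0.24, 0.27 and 0.02, so the direction was not shared. By sex the brightest probe set read 17300 to 18630 in trained females and 30620 to 50640 in trained males, with 18930 and 23900 in untrained females. The trained female and trained male signals did not overlap on this probe set, as for 5.89% of all probe sets tested, and the difference was -1.13 (SE 0.20; limma, adjusted p = 0.16). Its further probe sets had -0.17, -0.72 and -0.94. The probe set of -0.72 read 4300 to 5386 in trained females and 6336 to 8561 in trained males. That of -0.94 read 2016 to 3686 and 4950 to 5362, so both also had no overlap, while that of -0.17 overlapped.

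Of 17 NF-kB target genes 9 were tested, with 4 fitted values above 0 and 5 below for training (median -0.04), and 1 above and 8 below by sex (median -0.19). Ier3, a survival gene, had 0.67 (SE 0.29; limma, adjusted p = 0.53), and the adhesion molecule Icam1 had 913.6 to 1360 in trained mice, against 1445 and 1466 in untrained mice (-0.54, SE 0.28; limma, adjusted p = 0.67). Of the shedding genes 4 of 5 were tested. Timp3, the inhibitor of the protease that cleaves TNF and its receptors from the membrane, read 4172 to 10130 in trained mice, against 2044 and 3772 in untrained mice, a difference of 1.35 (SE 0.35; limma, adjusted p = 0.18). Its further probe sets gave -0.20, 0.40 and 0.22, so the size was not shared, and the direction was not shared by all. Rhbdf1, a partner of the same protease, had -0.11 (SE 0.19).

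**Figure D5:**
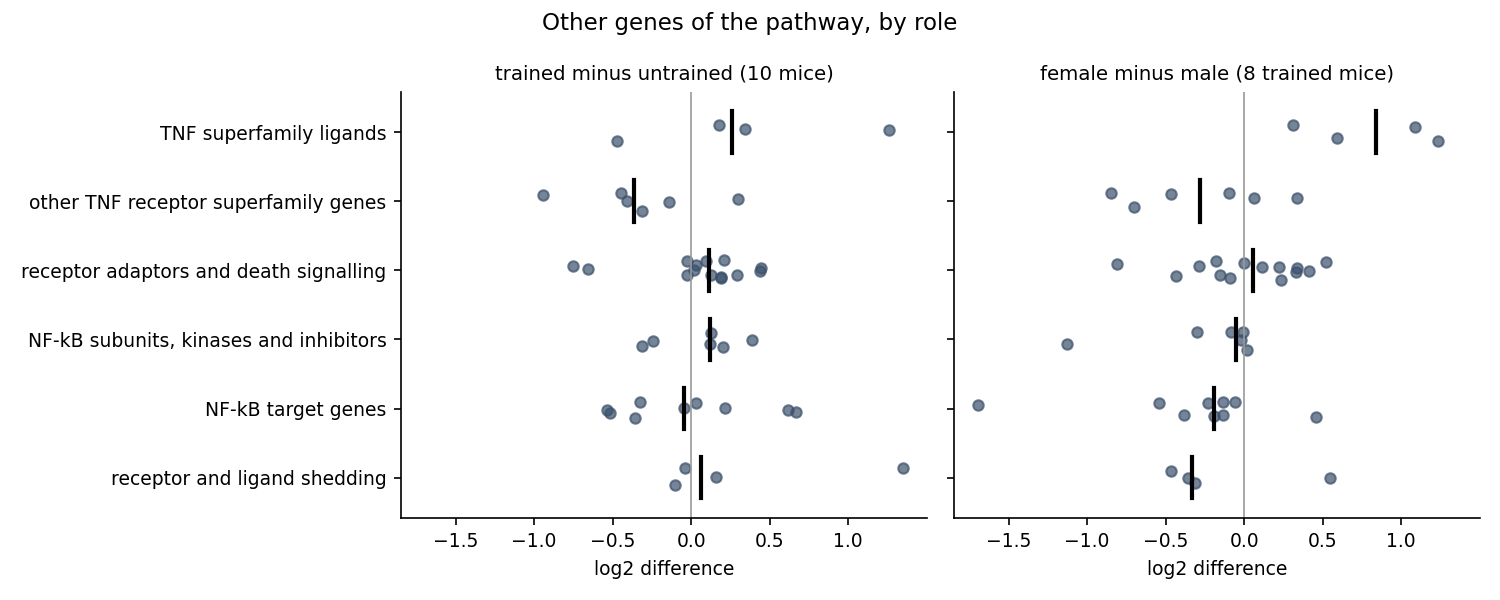
Log2 differences (horizontal axis) of the tested genes of each pathway list (rows, without the 5 receptors), each point 1 gene read by its brightest probe set and each black bar the median of the list, for trained minus untrained mice and for female minus male trained mice. None of the 43 genes passed the threshold in either panel.

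The genes whose signals ran most like those of each receptor over the 10 arrays were sought among 8359 tested genes, by Pearson r with the brightest probe set of the receptor. These are descriptions, since all values come from the same arrays. For Tnfrsf12a the 5 most alike were Magix (0.97), Pi16 (0.96), Ssr2 (0.95), Nrip1 (0.94) and C1qa (0.94), with r of 0.68 to 0.79 once the 2 mice farthest from the median were left out. C1qa, a complement gene of macrophages, read 731.6 to 4661 in trained females and 4568 to 6255 in trained males, against 6285 and 6931 in untrained females. Nrip1, a nuclear receptor corepressor, read 181.0 to 1320 in trained females and 1269 to 2062 in trained males, against 2030 and 2763 in untrained females. Both genes had their lowest values in trained females and their highest in untrained females, as Tnfrsf12a did, but with a small overlap between trained females and trained males, and for Nrip1 also between trained males and untrained females.

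For Tnfrsf1a the 3 most alike were Kcne4 (r = 0.94), a potassium channel subunit, Tasp1 (0.93) and Klf2 (0.91), a transcription factor induced by blood flow. Klf2 read 3050 to 4729 in trained females and 7163 to 16890 in trained males, against 3949 and 4852 in untrained females, with the trained males highest, as for Tnfrsf1a. For Tnfrsf1b they were Tars2 (0.92), Cops8 (0.92) and Fech (0.91), for Ltbr Vps72 (0.92), Ube4a (0.92) and Nop58 (0.91), and for Tnfrsf21 Pcbp4, Zdhhc2 (both 0.95) and Itga7 (0.94). Without the 2 mice farthest from the median, r was 0.86 to 0.92 for the genes of Tnfrsf1a, 0.81 to 0.91 for those of Tnfrsf1b and 0.80 to 0.84 for those of Ltbr, and 0.92, 0.76 and 0.59 for Pcbp4, Zdhhc2 and Itga7. No gene appeared under more than 1 receptor.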

How the data were processed

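The deposited values are signals in the unit intensity on a linear scale, made by the authors with MAS5 version 5.0, per the submitters' processing notes; they carry no detection calls. Further settings and a genome build are not given in the sources used here. Signals under the 10th percentile of all values were set to it before taking log2. Of 22690 probe sets, 64 were controls; the tests cover the 13576 whose average log2 signal reached the 40th percentile (9.37). The array annotation gave 1 symbol to 20393 probe sets and several to 691, and did not list 1606. A gene outside the 5 receptors was read by its brightest probe set with 1 symbol.

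Models were fitted with limma 3.58.1 (lmFit, eBayes with trend) in R 4.3.3, two-sided, with Benjamini-Hochberg adjustment over all probe sets and a threshold of 0.05. Training used 10 mice (terms genotype, sex), genotype 8 trained mice (term sex), sex the same 8 (term genotype), and the genotype by training term 10. The fits were tested on simulated data. Groups came from the labels; replicate numbers follow record order and are only names. The mice are separate animals, and the number of arrays limits the precision.

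The 5 genes and all lists were chosen with earlier results of these data known. Named are every probe set of the 5 genes, of each pathway list the genes past the threshold and the 2 of lowest p for training, and the 5 (Tnfrsf12a) or 3 (others) genes of highest r. Fos, Hcfc1r1, Xist and the other genes past the threshold by sex were named after their values were seen. Alternatives were other normalizations, floors, filters and eBayes settings, other terms, subsets of the mice, the fits without the arrays of high GAPDH ratio, and each mouse left out in turn.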

Additional observations from a re-analysis of the deposited data

Results flagged for a closer look

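The receptors and the pathway genes named above, the latter on their brightest probe set, were searched for single mice far from their trained group. Of these genes, 2 had 1 mouse far from the other 3 of its group. Other genes described, such as Hcfc1r1, were not part of this search. Eda read 423.1 in trained plakoglobin (+/-) replicate 1, a male with a GAPDH ratio of 2.98, below its group. Timp3 read 9715 in trained plakoglobin (+/-) replicate 4, a female, above its group. Chance alone marks about 1 in 20 groups of 4 in this way.

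The plakoglobin (+/-) minus wt difference of Tnfrsf12a 1418571_at had opposite directions in the sexes: 2.11 on the log2 scale in trained females and -0.16 in trained males. Each trained female plakoglobin (+/-) mouse lay above each trained female wt mouse, and each trained male plakoglobin (+/-) mouse lay below each trained male wt mouse. The other probe set, 1418572_x_at, showed neither separation: 878.1 in 1 trained female plakoglobin (+/-) mouse was below 1201.1 in 1 trained female wt mouse, and 3461.4 in 1 trained male plakoglobin (+/-) mouse was above both trained male wt mice. The difference between the sexes was not tested. With 2 mice against 2 in each sex, signals often separate by chance, and the share over all probe sets was not computed. The lower of the trained female wt values, 85.0, is that of the array with the GAPDH ratio of 17.8 and an actin ratio of 1.29.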

How the results depend on the processing

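The number of probe sets past the threshold for trained minus untrained mice was 85 (37 higher, 48 lower). It was 225 without the 3 arrays of high GAPDH ratio, 1 in wt mice only and 2 in plakoglobin (+/-) mice only, which hold fewer mice, and 10 to 87 with 1 mouse left out in turn (10 without the untrained plakoglobin (+/-) mouse, 34 without the untrained wt mouse, 50 without trained wt replicate 4, and 51 and 53 without trained plakoglobin (+/-) replicates 3 and 4). For female minus male it was 7. It was 13 with quantile normalization, 15 with a floor at the 25th percentile, 2 with no filter, 11 with a filter at the 60th percentile, 1 with eBayes without trend, 17 without the arrays of high GAPDH ratio, 13 with no genotype term, 15 with all 10 mice in 1 fit, and 1 to 12 with 1 mouse left out (12 without trained plakoglobin (+/-) replicate 2, and 1 without trained plakoglobin (+/-) replicate 3 or 4 or trained wt replicate 1, 2 or 4). For the genotype by training term it was 0 (limma, 434 at an unadjusted p under 0.05). It was 1 with quantile normalization, 66 with no filter, 1 without the arrays of high GAPDH ratio, and 0 to 1 with 1 mouse left out (1 without trained wt replicate 1). The cause was not tested. The genotype count was 0 in each alternative run. Among the receptors, the Tnfrsf12a training difference stayed negative in each alternative run, and ranged from -3.06 to -4.35 on 1418571_at and from -1.74 to -2.81 on 1418572_x_at with 1 mouse left out. No receptor passed by sex in any alternative run: the adjusted p of 1418571_at ranged from 0.11 to 0.96, that of 1418572_x_at from 0.27 to 0.96 and that of Tnfrsf1a from 0.31 to 0.96. At the 60th percentile filter 3 receptor probe sets (1448951_at, 1422740_at and 1450731_s_at) were not tested. No paired analysis was possible because littermates are not marked in the labels. Training rests on 2 untrained mice of 1 sex and another age, signals carry no detection calls, and 4 against 4 mice leave a wide error by sex.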
